A study of Mus musculus with 18 samples.

Results

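The 10 genes described here encode the translation factor eIF5A and its paralog (Eif5a, Eif5a2), the enzymes that make its hypusine residue (Dhps, Dohh), and the core enzymes and regulators of polyamine metabolism (Odc1, Amd1, Srm, Sms, Azin1, Sat1). They were taken by symbol from the 55401 genes in the mRNA count files, because eIF5A is a known protein cargo of the nuclear export receptor XPO4. All 10 passed the filter on low counts, as did 14688 genes in all. The mRNA data comprised 3 wild-type (WT) libraries of NIH/3T3, a fibroblast line of mouse embryo origin, and 3 libraries of the same line with XPO4 knocked out (KO). The paper describes the KO line as made with CRISPR-Cas9, with the edit alike on both copies of the gene. A further 12 libraries held circRNA counts from WT and KO cells, 2 each for the nuclear fraction, the cytoplasmic fraction and total RNA. According to the paper, RNA for circRNA sequencing was first treated with RNase R, which digests linear RNA. Between 16974062 and 22057323 fragments per mRNA library were counted in genes.

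eIF5A binds the ribosome and helps it through stretches of peptide that form bonds slowly, and it also acts when the finished peptide is released. It is the protein known to carry hypusine, which is built in place on a lysine side chain. Deoxyhypusine synthase (Dhps) moves an aminobutyl group from spermidine to that lysine, and deoxyhypusine hydroxylase (Dohh) adds a hydroxyl group, so the modification uses up the product of the polyamine pathway. Ornithine decarboxylase (Odc1) makes putrescine, Amd1 supplies the aminopropyl donor from S-adenosylmethionine, Srm and Sms make spermidine and spermine, and Sat1 acetylates both for breakdown or export. Much of this pathway is regulated in translation and protein turnover, which mRNA counts do not measure.

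The lysine that becomes hypusine is coded by codon 50 in both eIF5A genes. The 39 bases around this codon are shown because they carry the site that sets this protein family apart. The capitals mark the lysine codon, which lies at chr11:69919166-69919168 in exon 3 of the Eif5a transcript used (GRCm38, minus strand) and at chr3:28782199-28782201 in exon 2 of that of Eif5a2 (plus strand). Each stretch is spliced from 2 neighbouring exons, and the sequences come from the RefSeq GRCm38.p6 genome with GENCODE vM21 gene models.
Eif5a: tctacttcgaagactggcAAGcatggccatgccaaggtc
Eif5a2: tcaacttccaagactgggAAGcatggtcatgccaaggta
The lysine codon was the same in both, and 5 of the 39 bases differed. Over the aligned coding sequences of 459 bases, the 2 genes were 73.2% identical. Over the full transcripts used, their longest identical run was 14 bases, so reads of these genes could be told apart.

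Several properties of the libraries stood beside every result. Expression of Xpo4 itself was not lower in KO. It had 712, 504 and 687 counts in the KO libraries and 657, 614 and 685 in the WT libraries (log2 fold change 0.18 ± 0.11, SE, edgeR adjusted p = 0.193), and without KO replicate 2 it was higher in KO (log2 fold change 0.34, edgeR adjusted p = 0.000252). Its mRNA level therefore gave no check of the labels. The header inside each mRNA file names a BAM file of the other genotype. The sample titles were followed, and every direction given here would turn if the headers were right. The 4 Y-linked genes Ddx3y, Eif2s3y, Kdm5d and Uty together had 1059 to 1208 counts in each KO library and 0 in each WT library. Across chromosome 10, 66.0% of the other tested genes were higher in KO and 8.28% lower, with a median log2 fold change of 0.44. The KO line therefore differed from the WT line in more than the edited gene, and effects of XPO4 loss and differences between the lines cannot be told apart. Among the KO libraries, replicate 2 stood apart, with a chi-square per gene of 10.6 and 12.3 against the other two, where the other pair gave 3.68 and the WT pairs gave 3.05 to 4.98. The extraction text of the labels mentions peripheral blood, but the 8 fibroblast markers summed to 2726 to 2926 FPKM in the 6 libraries and the 7 blood markers to 0.327 to 1.15 FPKM. The blood sum was 1.00 to 1.15 FPKM in KO and 0.327 to 0.411 FPKM in WT, but its markers went both ways. Ptprc had 21 to 32 counts in KO and 103 to 108 in WT, Lyz2 had 10 to 13 and 1 to 3, Hba-a1 had 6 to 8 and 0, and Hbb-bs and Cd3e were at 0 in every library.

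Of the 10 genes, 5 were higher in KO and none lower at an adjusted p under 0.05 (edgeR quasi-likelihood fit, Benjamini-Hochberg correction over all 14688 genes). These were Sat1, Dohh, Sms, Amd1 and Srm. Over all genes tested, 25.1% were higher and 23.6% lower, with a median log2 fold change of 0.00, against a median of 0.18 for the 10 genes. At an unadjusted p under 0.05, Eif5a2 was also higher and none was lower. The share of all genes at that unadjusted p was not computed. DESeq2 likewise called 5 higher and none lower, where it called 3476 higher and 2965 lower of 27839 genes with any count. In 6 of the 10 genes every KO library lay above every WT library and in none below, where 29.1% of all genes had KO above and 28.7% KO below. When libraries were scaled within each gene's own chromosome, 4 of the 10 were higher (Sat1, Sms, Azin1 and Odc1) and 1 lower (Amd1). The share of all genes called under that scaling was 23.8% higher and 22.3% lower. The calls of Sat1 and Sms held under both scalings, and those of Dohh, Amd1 and Srm did not.

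**Figure D1:**
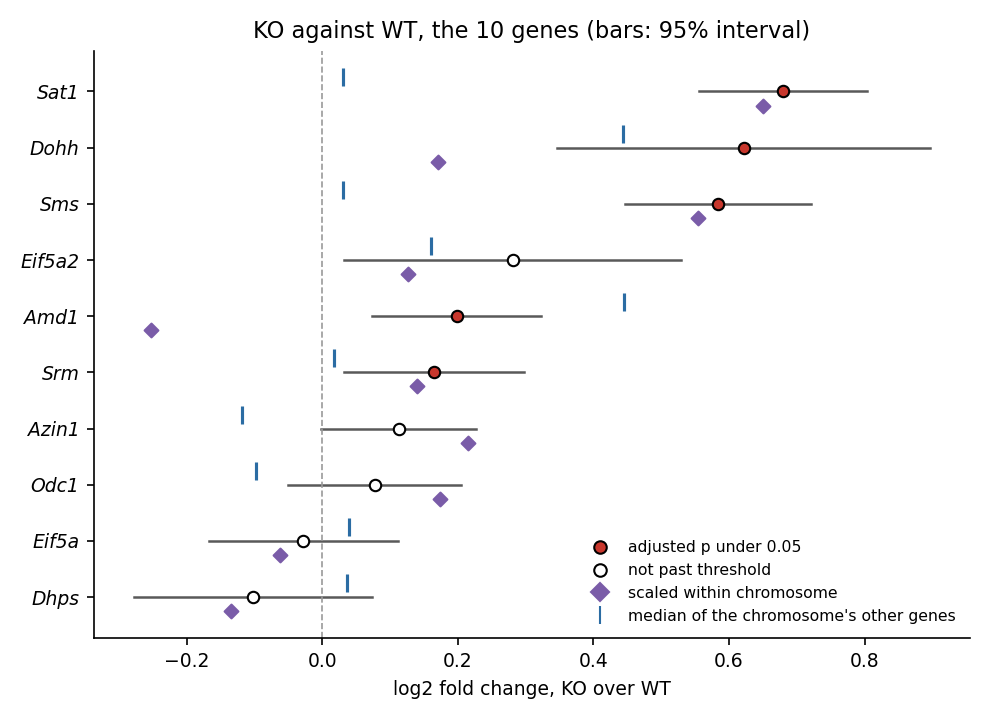
Log2 fold change of the 10 genes, KO over WT, from edgeR on 3 libraries per genotype (circles, filled where the adjusted p was under 0.05; bars, 95% interval), with the value after scaling within the chromosome (diamonds) and the median of the other genes of the chromosome (ticks). Sat1 and Sms stayed near 0.65 and 0.55 after scaling, Dohh moved from 0.62 to 0.17 and Amd1 from 0.20 to -0.25.

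Levels are given as FPKM, fragments per kilobase of the gene length in the files and per 1000000 counted fragments. That length can exceed the length of a single transcript, and not equally for all genes. It was 2774 nt for Sat1 and 3544 nt for Amd1, whose transcripts used here have 896 and 3204 nt. The order of genes below therefore holds for this length only, while KO and WT levels of 1 gene share the same length. In WT the order from high to low was Eif5a, Srm, Amd1, Azin1, Sat1, Odc1, Dhps, Sms, Dohh and Eif5a2. Eif5a was 6.18-fold above Srm, the next gene. Azin1 and Sat1 overlapped between their WT libraries, and every other pair of neighbours in this order was separated in all 3 WT libraries. The level of Dohh is understated, because 972 of its 2048 bases are shared with Gm48551 and fragments there were not counted. Its place below Sms is therefore uncertain. Sat1 rose past Azin1 and Amd1 in KO on this FPKM scale, with a mean of 44.3 FPKM against 37.9 FPKM for Amd1.

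**Figure D2:**
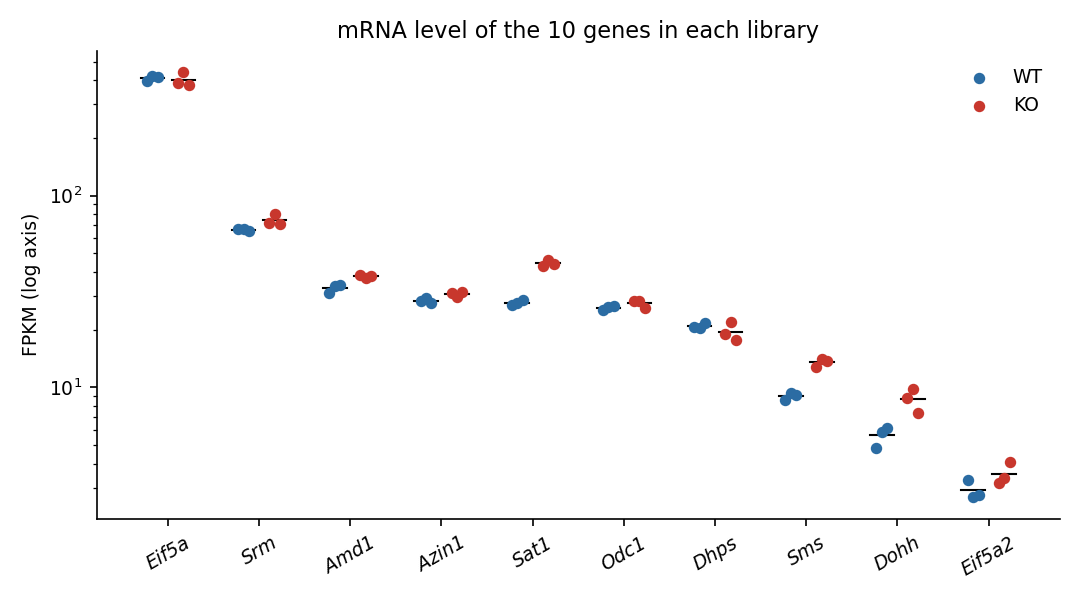
FPKM of the 10 genes in each mRNA library on a log axis, ordered by the WT mean (points, libraries; lines, group means, n = 3). Eif5a lay near 400 FPKM in both genotypes and Eif5a2 between 2.67 and 4.07 FPKM, while the KO and WT points of Sat1, Sms and Dohh were separated.

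The eIF5A genes came first. Eif5a (ENSMUSG00000078812.10, chr11:69916714-69921958) had 388, 441 and 379 FPKM in the KO libraries and 394, 419 and 418 FPKM in the WT libraries. The highest value was in KO replicate 2 and the groups overlapped. The means were 402 ± 33.6 FPKM in KO and 410 ± 14.3 FPKM in WT (SD, n = 3). The log2 fold change was -0.03 with a 95% interval of -0.17 to 0.11 (edgeR adjusted p = 0.740), which as a ratio of KO to WT runs from 0.890 to 1.08. Without KO replicate 2 the log2 fold change was -0.10, close to the threshold (edgeR adjusted p = 0.0525). It was 0.01 without KO replicate 1 and 0.02 without KO replicate 3. Its pseudogene Eif5al3-ps, 97.3% identical over 447 bases, had 0.0290% as many counts as Eif5a, and adding them did not change the call.

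Eif5a2 (ENSMUSG00000050192.8, chr3:28781276-28798846), the paralog that is low in most normal tissues, had 3.19, 3.36 and 4.07 FPKM in KO and 3.30, 2.67 and 2.76 FPKM in WT. KO replicate 3 was the highest and KO replicate 1 lay inside the WT range. Its log2 fold change of 0.28 ± 0.12 (SE) did not pass the threshold (edgeR adjusted p = 0.0595). It passed under 4 of 13 other settings (no filter on low counts, and without KO replicate 1, KO replicate 2 or WT replicate 1, where it was 0.36, 0.32 and 0.38). Without KO replicate 3 it was 0.18 (edgeR adjusted p = 0.227). On chromosome 3 the other genes had a median of 0.16, and scaled within it Eif5a2 was at 0.13 (edgeR adjusted p = 0.385). The share of Eif5a2 in the summed FPKM of both genes was 0.817%, 0.757% and 1.06% in KO and 0.832%, 0.633% and 0.656% in WT. The means were 0.879% ± 0.162 and 0.707% ± 0.109 (SD, n = 3), and the groups overlapped. A two-sided exact permutation test gave p = 0.3, where 3 against 3 libraries allow no p under 0.1. The difference of the means fell from 0.172 to 0.0798 percentage points without KO replicate 3. At the mRNA level, eIF5A was thus almost wholly the product of Eif5a in both genotypes.

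Of the hypusine enzymes, Dohh was higher in KO and Dhps did not pass the threshold, and the difference between them was not tested. Dhps (ENSMUSG00000060038.14, chr8:85071757-85075162) had 18.9, 21.9 and 17.6 FPKM in KO and 20.6, 20.4 and 21.7 FPKM in WT. KO replicate 2 was above every WT library and the other KO libraries below, so the groups overlapped. Its log2 fold change was -0.10 ± 0.08 (SE, edgeR adjusted p = 0.315). Without KO replicate 2 it was -0.20 and past the threshold (edgeR adjusted p = 0.0167), and without KO replicate 3 it was -0.03 (edgeR adjusted p = 0.812). Exons of Dhps share 128 bases with Wdr83 on the opposite strand, and counting did not use strand, so fragments within these bases cannot be assigned to either gene.

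Dohh (ENSMUSG00000078440.10, chr10:81384428-81388352) had 8.85, 9.81 and 7.36 FPKM in KO and 4.84, 5.88 and 6.18 FPKM in WT. Each KO library lay above each WT library. The means were 8.67 ± 1.23 FPKM and 5.63 ± 0.703 FPKM (SD, n = 3), a 1.54-fold difference (log2 fold change 0.62 ± 0.13, SE, edgeR adjusted p = 0.00125). Dohh lies on chromosome 10, where the 186 tested genes within 5 Mb had a median log2 fold change of 0.50. Scaled within the chromosome, Dohh did not pass (log2 fold change 0.17, edgeR adjusted p = 0.292). Dohh shares 972 exon bases with Gm48551 on the same strand, so that fragments there were not counted for either gene.

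Among the enzymes that build polyamines, spermine synthase showed the clearest difference. Odc1 (ENSMUSG00000011179.8, chr12:17544794-17551505), which makes putrescine from ornithine, had 28.3, 28.3 and 25.8 FPKM in KO and 25.4, 26.2 and 26.5 FPKM in WT. KO replicate 3 lay inside the WT range. The log2 fold change was 0.08 with a 95% interval of -0.05 to 0.20 (edgeR adjusted p = 0.298). On chromosome 12 the median of the other genes was -0.10, and after scaling within the chromosome Odc1 was higher by 0.17 on the log2 scale (edgeR adjusted p = 0.0299).

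Amd1 (ENSMUSG00000075232.6, chr10:40287458-40302188), the S-adenosylmethionine decarboxylase, had 38.6, 37.1 and 38.1 FPKM in KO and 31.0, 34.0 and 34.0 FPKM in WT. The groups did not overlap, and WT replicate 1 was the lowest. The log2 fold change was 0.20 ± 0.06 (SE, edgeR adjusted p = 0.0117), and 0.15 without WT replicate 1, not past the threshold (edgeR adjusted p = 0.0755). Its direction depended on the scaling. Amd1 also lies on chromosome 10, and the 48 tested genes within 5 Mb had a median of 0.41. Against its own chromosome it was lower in KO, with a log2 fold change of -0.25 (edgeR adjusted p = 0.00323). Dohh and Amd1, which share the chromosome, thus differed in their place within it, at percentiles 67.6 and 26.9 of the log2 fold changes of chromosome 10.

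Srm (ENSMUSG00000006442.10, chr4:148591503-148594993), which makes spermidine, had 72.2, 80.0 and 71.1 FPKM in KO and 67.2, 66.8 and 65.1 FPKM in WT. All KO libraries were above all WT libraries, by a small margin. The log2 fold change of 0.16 ± 0.06 (SE) was close to the threshold (edgeR adjusted p = 0.0408), and it was not past it under 6 of 13 other settings, among them leaving out KO replicate 2, at 0.11, or any WT library.

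Sms (ENSMUSG00000071708.11, chrX:157443855-157492287), which turns spermidine into spermine, had 12.8, 14.1 and 13.7 FPKM in KO and 8.61, 9.39 and 9.11 FPKM in WT. The lowest KO library was well above the highest WT library. The means were 13.6 ± 0.697 FPKM and 9.04 ± 0.395 FPKM (SD, n = 3), a 1.50-fold difference (log2 fold change 0.58 ± 0.06, SE, edgeR adjusted p = 6.31e-06). Scaled within the X chromosome it was 0.55, and the 25 tested genes within 5 Mb had a median of 0.09. The processed pseudogene Sms-ps is identical to Sms over all of its 1101 bases and had 24.4% as many counts. With its counts added, an alternative chosen after seeing the data, Sms was still higher.

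Azin1 (ENSMUSG00000037458.15, chr15:38487427-38519266), an enzymatically inactive relative of Odc1 that binds antizyme and so spares Odc1 from degradation, had 31.1, 29.7 and 31.4 FPKM in KO and 28.3, 29.2 and 27.6 FPKM in WT. The groups did not overlap but lay close. The log2 fold change was 0.11 ± 0.05 (SE, edgeR adjusted p = 0.0942). Against its own chromosome, whose other genes had a median of -0.12, it was higher by 0.22 (edgeR adjusted p = 0.00485). Without KO replicate 2 it was also past the threshold, at 0.14 (edgeR adjusted p = 0.0232). Azin1 shares 358 exon bases with the antisense gene Gm49077.

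Sat1 (ENSMUSG00000025283.15, chrX:155213132-155216449), the spermidine/spermine acetyltransferase, showed the largest difference of the 10 genes. It had 43.2, 45.9 and 43.9 FPKM in KO and 26.7, 27.6 and 28.6 FPKM in WT. The 3 libraries of a genotype lay close together and far from those of the other. The means were 44.3 ± 1.43 FPKM and 27.6 ± 0.933 FPKM (SD, n = 3), a 1.60-fold difference with a 95% interval of 1.47 to 1.75 (log2 fold change 0.68 ± 0.06, SE, edgeR adjusted p = 5.95e-07). Scaled within the X chromosome it was 0.65, and the call held under all 13 other settings. Sat1 and Sms lie 2.23 Mb apart on the X chromosome. Within 5 Mb of Sat1, the 43 tested genes had a median of 0.03, and within 2 Mb the 11 tested genes had a median of 0.35.

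Outside the 10 genes, 21 further genes of polyamine synthesis, breakdown, regulation and transport were examined. Of these 12 were tested, 6 were higher in KO and none was lower, with a median log2 fold change of 0.29, where 25.1% of all genes tested were higher and 23.6% lower. Scaled within the chromosome, 3 of these 6 still passed (Smox, Oaz1 and Oaz2) and Slc12a8 passed as well, so 4 of the 12 were called. Under that scaling 23.8% of all genes were higher and 22.3% lower. Of the 6 genes higher without it, the 5 largest were Smox, Amd2, Oaz1, Oaz2 and Slc18b1. Smox, the spermine oxidase that returns spermine to spermidine, had 1739, 1880 and 1626 counts in KO and 937, 954 and 1051 in WT, and its log2 fold change was 1.05 ± 0.06 (SE, edgeR adjusted p = 1.37e-08). All KO libraries were above all WT libraries, and after scaling within chromosome 2 it was 1.04. Paox, the oxidase of acetylated polyamines, did not pass the threshold (log2 fold change 0.01).

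The antizymes Oaz1 and Oaz2, which bind Odc1 and direct it to the proteasome, were both higher. Oaz1 had 11854, 12915 and 10357 counts in KO and 7816, 7742 and 8793 in WT (log2 fold change 0.75 ± 0.06, SE, edgeR adjusted p = 6.21e-07). It lies on chromosome 10, 0.555 Mb from Dohh, and was higher by 0.30 after scaling within that chromosome (edgeR adjusted p = 0.00167). Oaz2, on chromosome 9, had a log2 fold change of 0.46 ± 0.06 (SE, edgeR adjusted p = 3.62e-05) and 0.43 after that scaling. The antizyme genes are read with a frameshift that polyamines promote, so their mRNA level does not give the antizyme level.

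Amd2, an intronless copy of Amd1 with 99.9% identity over 1002 coding bases, had 159, 223 and 211 counts in KO and 172, 117 and 119 in WT. The log2 fold change was 0.76 ± 0.18 (SE, edgeR adjusted p = 0.00374). Its longest identical run with Amd1 was 930 bases, so the split of reads between them is uncertain, and with Amd2 counts added to Amd1 the latter was still higher. Scaled within chromosome 10, Amd2 did not pass (log2 fold change 0.31, edgeR adjusted p = 0.181). Slc18b1, a vesicular polyamine transporter on chromosome 10, had a log2 fold change of 0.31 (edgeR adjusted p = 0.00661), and -0.14 after scaling within that chromosome (edgeR adjusted p = 0.181). Of the transporters Atp13a2, Atp13a3 and Slc3a2, none passed the threshold.

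**Figure D3:**
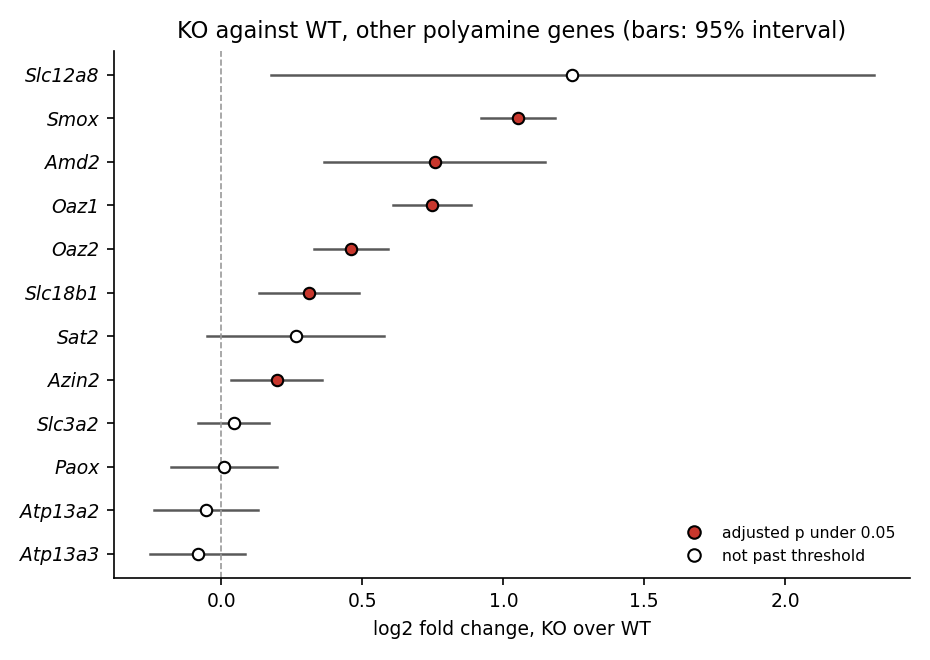
Log2 fold change, KO over WT, of the 12 tested polyamine genes outside the 10 (circles, filled where the edgeR adjusted p was under 0.05; bars, 95% interval). Smox reached 1.05 and Oaz1 0.75, and Slc12a8, with 2 to 11 counts per library, had a wide interval and did not pass (it passed when scaled within its chromosome).

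The balance of Odc1 with its regulators was compared within libraries. The FPKM ratio of Oaz1 to Odc1 was 9.17, 9.95 and 9.23 in KO and 6.05, 5.92 and 5.87 in WT. All KO libraries were above all WT libraries, with means of 9.45 ± 0.434 and 5.95 ± 0.0927 (SD, n = 3; p = 0.1 by a two-sided exact permutation test, under which 3 against 3 libraries cannot go). The ratio of Azin1 to Odc1 was 1.10, 1.05 and 1.21 in KO and 1.11, 1.12 and 1.04 in WT, and these groups overlapped (two-sided exact permutation test, p = 0.8). The medians of the chromosomes of Oaz1 and Odc1, 0.44 and -0.10, lay apart in the same direction as the Oaz1 ratio. Scaled within their chromosomes, Oaz1 and Odc1 had log2 fold changes of 0.30 and 0.17, against 0.75 and 0.08 without that scaling. The 2 genes thus lay closer together after scaling, and the ratio itself was not computed under it.

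**Figure D4:**
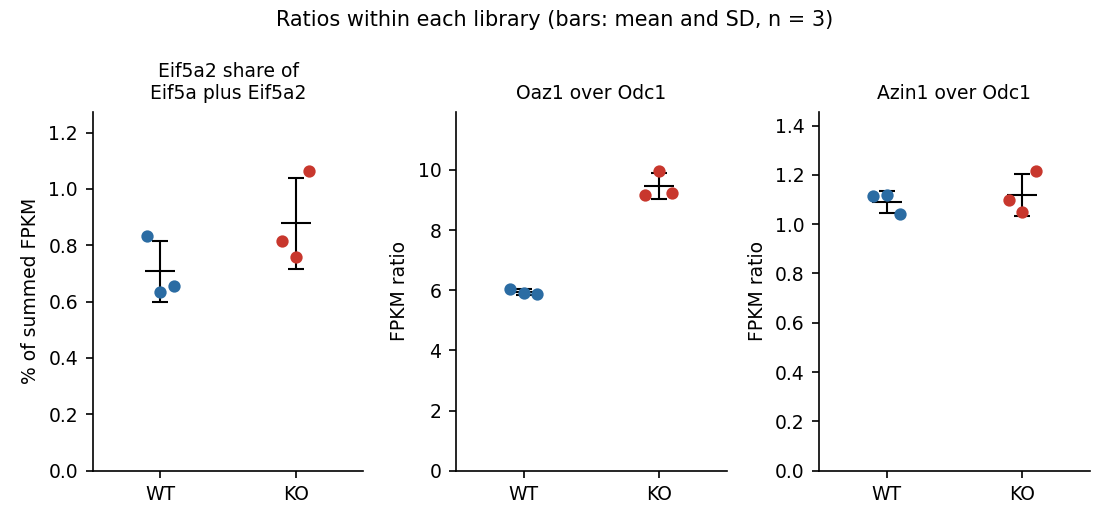
Eif5a2 as a percent of Eif5a plus Eif5a2 FPKM, and the FPKM ratios of Oaz1 and Azin1 to Odc1, in each mRNA library (points; lines and bars, mean and SD, n = 3). The Oaz1 ratio was 9.17 to 9.95 in KO and 5.87 to 6.05 in WT, and the other two ratios overlapped between genotypes.

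The methionine cycle supplies the S-adenosylmethionine that Amd1 consumes, and the salvage pathway recovers its by-product methylthioadenosine. Of 9 tested genes in this list, 2 were higher and 3 lower, beside 25.1% and 23.6% of all genes. Mtap, which opens the salvage pathway, had a log2 fold change of 0.53 ± 0.06 (SE, edgeR adjusted p = 4.90e-06), and Mat2b, a regulatory subunit of methionine adenosyltransferase, 0.18 ± 0.06. The catalytic subunit Mat2a (log2 fold change -0.22), Ahcy, which hydrolyses S-adenosylhomocysteine (-0.30), and methionine synthase Mtr (-0.58) were lower. Scaled within the chromosome, Mtap, Ahcy and Mtr still passed, and Mat2a and Mat2b did not.

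Since eIF5A acts in elongation and termination, a list of 11 tested genes named for or linked to these steps was set beside it. A place in this list, as for Eef1e1, does not show that a gene acts in them. One gene, Eef1e1 (log2 fold change 0.27), was higher and 8 were lower, beside 25.1% and 23.6% of all genes. The lower genes included the eEF2 kinase gene Eef2k (-0.62), the eEF1 subunit genes Eef1b2 (-0.56) and Eef1g (-0.53), and the release factor gene Gspt2 (-0.34). Eef1b2 had 304 ± 33.3 FPKM in KO and 447 ± 22.9 FPKM in WT (SD, n = 3; edgeR adjusted p = 4.23e-05). It lies on chromosome 1, where 44.3% of genes were lower with a median of -0.21, and scaled within that chromosome its log2 fold change was -0.34 (edgeR adjusted p = 0.00316). The called genes in this list numbered 9 with all libraries, 3 without WT replicate 2, 5 without KO replicate 1, WT replicate 1 or WT replicate 3, and 11 without KO replicate 2. Several of these genes have many processed copies, among which the counting could split reads.

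Diphthamide, the modified histidine of eEF2, is made by a set of 7 tested genes, of which Dph5 (log2 fold change 0.42) and Dph3 (0.27) were higher and Dph1 (-0.80) was lower, beside 25.1% and 23.6% of all genes. Scaled within chromosome 3, Dph5 was at 0.27 (edgeR adjusted p = 0.0435). Among other known cargoes of XPO4, Smad3 had a log2 fold change of 0.08 (edgeR adjusted p = 0.361), or 0.16 and past the threshold without KO replicate 2 (edgeR adjusted p = 0.0197), and Sox2 had 0 counts in all 6 libraries. In the Myc network, whose transcription factors are known to act on Odc1, 1 of 8 tested genes was higher and 5 were lower, beside 25.1% and 23.6% of all genes. Myc had 1321, 1310 and 1270 counts in KO and 2810, 2498 and 2943 in WT (log2 fold change -0.86 ± 0.06, SE, edgeR adjusted p = 5.41e-08), while Mycn rose from 1 to 4 counts per WT library to 15 to 38 per KO library. Mxi1 (-0.52), Mxd1 (-0.33), Mnt (-0.33) and Mxd4 (-0.18) were lower. Scaled within its chromosome, Mxd1 did not pass (-0.22, edgeR adjusted p = 0.0853).

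The E-box CACGTG, the motif bound by Myc and its partners, was searched in RefSeq promoter sequences of 300 bases, 250 before and 50 after each start (GRCm38.p6). The motif reads the same on both strands. Of the 10 genes, 8 were matched, with 14 promoters between them, and 6 promoters of 4 genes (Eif5a, Eif5a2, Dohh and Sms) held it. Over all 32851 promoters in the table, 7.15% held it. These shares cannot be set against each other, because Eif5a alone supplied 6 of the 14 promoters and some of them overlap. The same Eif5a site was counted 74 bases before 1 start and 185 bases before another. A share per gene was not computed. Examples are shown for Eif5a2, which has the motif 142 and 117 bases before its start, for 1 of the 6 starts of Eif5a, 74 bases before it, and for Sms, 196 bases before 1 of its 2 starts. The capitals mark the motif, and the windows lie at chr3:28781115-28781185 (plus strand), chr11:69921435-69921480 (minus strand) and chrX:157492458-157492503 (minus strand).
Eif5a2 promoter: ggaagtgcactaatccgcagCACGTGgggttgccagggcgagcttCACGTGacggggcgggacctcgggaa
Eif5a promoter: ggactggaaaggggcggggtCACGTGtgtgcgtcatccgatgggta
Sms promoter: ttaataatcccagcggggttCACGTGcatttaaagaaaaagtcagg
A match is a description of letters in these windows. Genes with the motif included Sms, which was higher in KO, and Eif5a, which did not pass the threshold, and Odc1, Amd1, Dhps and Sat1 had no match in theirs.

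circRNAs were listed within 1 of the 10 genes, Azin1. Both ends of each of its 6 circles fell on exon borders of the annotation. Summed over them, 27 and 15 junction reads were counted in KO and 21 and 12 in WT total RNA, and 21 and 18 in KO and 28 and 48 in WT cytoplasm. Per 1000000 junction reads of each library, the cytoplasmic sums were 415 and 284 in KO and 360 and 586 in WT, so the groups overlapped. No Azin1 circle was listed in the 4 nuclear libraries, which held 2189 to 4383 junction reads. At that depth 3 reads would make up 0.0684% to 0.137% of a library, a limit that covers counting error alone and holds only if the lists are complete. This equals 684 to 1370 per 1000000 junction reads. The Azin1 sums of the cytoplasmic and total RNA libraries, 218 to 586 per 1000000, all lay below it. The nuclear lists therefore cannot show whether these circles were absent from the nucleus. The most abundant circle joins exons 9 and 5 of Azin1 (chr15:38493474-38498841, minus strand, 628 nt spliced), and the sequence across its backsplice is shown because it is the read-out that identifies the circle. Lower case is the end of exon 9 and capitals are the start of exon 5.
circAzin1 junction: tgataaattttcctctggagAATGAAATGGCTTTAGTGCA
This circle had 19 and 11 reads in KO and 15 and 8 in WT total RNA, and 3 and 4 in KO and 17 and 28 in WT cytoplasm. Per 1000000 junction reads, the cytoplasmic values were 59.3 (exact 95% binomial interval 12.2 to 173) and 63.2 (17.2 to 162) in KO and 218 (127 to 350) and 342 (227 to 494) in WT. The KO cytoplasmic values thus lay below both WT values, whereas the circle of exons 3 to 9 had 12 and 10 reads in KO and 4 and 6 in WT cytoplasm. No test was run on these counts, and 2 against 2 libraries allow no exact p under 0.333. The circle of exons 3 to 9 was not listed in any total RNA library, and the circle of exons 2 to 6 was listed in total RNA but in no cytoplasmic library, so the lists of the fractions do not cover the same circles.

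**Figure D5:**
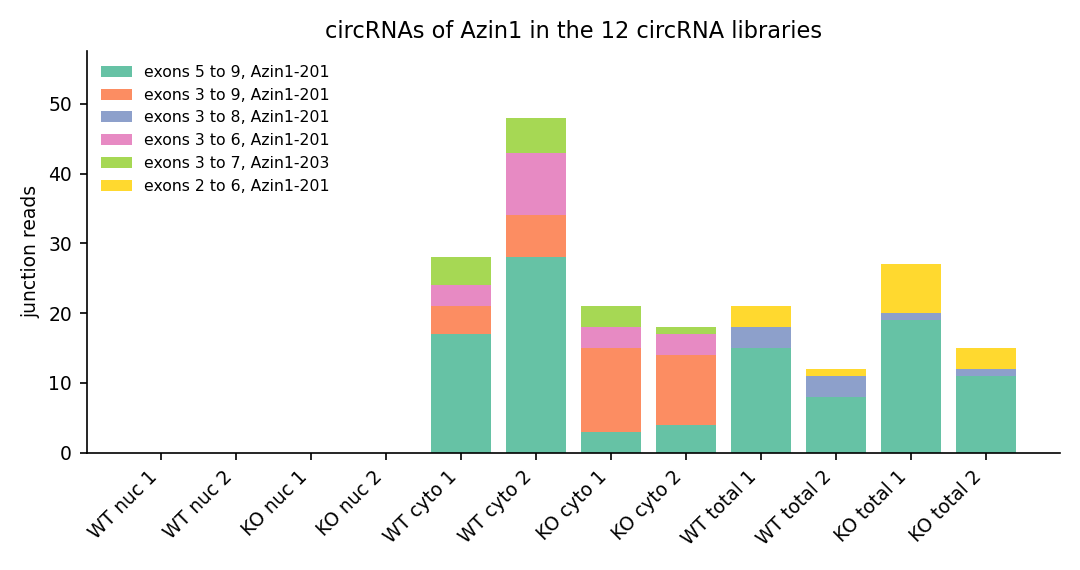
Junction reads of the 6 circRNAs of Azin1 in each of the 12 circRNA libraries (bars from 0, stacked by circle; nuc, nuclear; cyto, cytoplasmic; total, total RNA; 2 libraries per group). In cytoplasm, the circle of exons 5 to 9 was counted 3 and 4 times in KO and 17 and 28 times in WT, and no circle was counted in the nuclear libraries.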

How the data were processed

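For mRNA-seq, per the file headers, the authors counted fragments per gene over exons with featureCounts (version 2.0.0, paired-end, without strand, multi-mapping reads not counted), and the submitters' processing notes name HISAT2 and mm10. The deposited values are raw counts per gene. The release of the gene annotation is not given in the sources used here. Of 55401 genes, 54821 had the coordinates of GENCODE vM21. Symbols were assigned by gene ID from a list of gene names. For circRNAs, the deposited values are counts of junction reads per circle.

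Genotype was taken from the sample titles. FPKM was computed from the counts, the gene length in the files and the library total. edgeR (version 4.0.16, R 4.3.3; filterByExpr, TMM, glmQLFit, glmQLFTest) compared KO with WT over 14688 genes without a replicate block, with p-values adjusted by Benjamini-Hochberg and 0.05 as the threshold. Scaling within the chromosome used TMM factors of that chromosome's genes alone. The windows around genes were added after seeing the data. DESeq2 (version 1.42.0), other scalings, no filter, a replicate block, added reads of copies and leaving out each library were alternatives. Ratios were compared by exact permutation tests of libraries. Nothing in the sources says that replicates were separate cultures, so p-values measure the spread between these libraries, which may be technical. The scripts were tested on simulated data. No libraries were duplicates of each other.

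The 10 genes and the lists were chosen with earlier results of these data known. The text names the 10 genes, Xpo4, annotated copies of the 10 and, from each list, genes past the threshold, at most the 5 with the largest absolute log2 fold change. Genes named beyond this rule (Paox, Atp13a2, Atp13a3, Slc3a2, Slc12a8, Mxd4, Smad3, Sox2, the Y-linked genes, and genes whose exons overlap the 10) were chosen after their values were seen. The other marker lists (epithelial, endothelial, muscle and neuronal) summed to at most 2.23 FPKM in any library. Python 3.11.15, samtools 1.23.1 and matplotlib 3.10.9 were used.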

Additional observations from a re-analysis of the deposited data

How the results depend on the processing

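The number of the 10 genes higher in KO was between 4 and 6, and lower 0 or 1, with any library left out. In the same fits 3226 to 3847 of all genes were higher and 2901 to 3550 lower, of 14908 to 15218 tested. Scaling within the chromosome gave 1 lower gene, Amd1, whose log2 fold change reversed to -0.25, and 3 called genes in the methionine list against 5. With single libraries left out, the called genes numbered 3 to 11 among the elongation and termination factors, 0 to 2 among XPO4 and its cargoes, and the Azin1 to Odc1 difference (KO minus WT) was between -0.0174 and 0.0656, below 0 without KO replicate 3. With the replicate number as a block, 5 of the 10 genes were higher and 0 lower, and no call among them changed. Of all 14688 genes, 3660 were higher and 3464 lower in that fit. Same-numbered libraries did not deviate together (correlations 0.0615, 0.0359 and -0.0889), and 2 of 6 libraries correlated best with their own number. Sat1, Sms and Eif5a kept their side of the threshold under every alternative run, though Eif5a came close to it without KO replicate 2 (edgeR adjusted p = 0.0525). The cause of these shifts was not tested. The genes with the fewest counts, Dohh and Eif5a2, had the widest SE, 0.13 and 0.12 on the log2 scale.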
